A study of Mus musculus with 10 samples.

Results

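The 10 genes described here are pericentral target genes of beta-catenin in mouse liver: Glul, Oat, Slc1a2, Rhbg, Cyp2e1, Cyp1a2, Axin2, Notum, Lgr5 and Tbx3. They were chosen by gene symbol, and each was represented by the probe set with the highest mean signal over the 10 arrays of the series. All 10 had a probe set of their own and passed the filter on low signals, among 18193 genes with a probe set and 11507 that passed. Liver RNA was hybridised to Affymetrix arrays of 45101 probe sets, 1 array per sample, and all mice were of the 129/B6 strain. The aged samples were all Gnmt knockout: 2 hepatocellular carcinomas (HCC), of a male of 18 months and a female of 14 months, 1 dysplastic nodule of a female of 21 months, and liver adjacent to each of these 3 lesions. The young samples were liver of 11 weeks, with 1 male and 1 female pool of Gnmt knockout mice and 1 male and 1 female pool of wild-type mice, each pool mixed from RNA of 3 mice. Gnmt encodes glycine N-methyltransferase, a liver enzyme that uses up S-adenosylmethionine. Each lesion was set against the adjacent liver that matched it in sex and age, taken as the same mouse, since the labels give no mouse numbers. The lesions come from 3 mice, so they stand for those mice and not for a cohort.

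Hepatocytes along the liver lobule differ by position. Those around the central vein receive Wnt proteins and R-spondin from nearby endothelial cells, which keep beta-catenin from being degraded, and beta-catenin with TCF/LEF factors then drives a pericentral set of genes. Several of the 10 genes handle nitrogen. Glul encodes glutamine synthetase, which traps ammonium in glutamine, Oat encodes ornithine aminotransferase, Slc1a2 a glutamate transporter and Rhbg an ammonium transporter. Cyp2e1 and Cyp1a2 encode cytochrome P450 enzymes that oxidise ethanol and many drugs. Axin2 encodes a scaffold of the complex that degrades beta-catenin, Notum a secreted enzyme that inactivates Wnt proteins, Lgr5 a receptor for R-spondins, and Tbx3 a transcription factor. In liver tumours with an activated beta-catenin these genes are often raised, and GLUL is used as a stain for such tumours in people.

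The start sites of the 4 metabolic genes below are shown because these genes had the largest differences between HCC and adjacent liver, and because the letters bound by TCF/LEF factors can be looked up in them. Each window runs from 250 bases before to 50 bases after a start annotated by RefSeq in GRCm38.p6, 5′ to 3′ on the gene's strand. Capitals mark CTTTGA, the core letters of a TCF/LEF site, or its reverse complement TCAAAG.
Oat, chr7:132576349-132576648, minus strand: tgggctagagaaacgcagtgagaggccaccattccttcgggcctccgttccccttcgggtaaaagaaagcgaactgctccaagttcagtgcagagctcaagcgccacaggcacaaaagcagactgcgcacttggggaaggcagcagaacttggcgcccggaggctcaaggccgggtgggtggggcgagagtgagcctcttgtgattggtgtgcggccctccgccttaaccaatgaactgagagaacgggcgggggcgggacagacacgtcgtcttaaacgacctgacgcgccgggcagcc
Cyp1a2, chr9:57683606-57683905, minus strand: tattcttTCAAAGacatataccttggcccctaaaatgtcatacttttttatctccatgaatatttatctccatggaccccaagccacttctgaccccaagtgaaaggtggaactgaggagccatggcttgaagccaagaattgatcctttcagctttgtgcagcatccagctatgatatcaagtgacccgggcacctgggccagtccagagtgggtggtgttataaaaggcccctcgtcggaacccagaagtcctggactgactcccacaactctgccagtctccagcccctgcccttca
Slc1a2, chr2:102706188-102706487, plus strand: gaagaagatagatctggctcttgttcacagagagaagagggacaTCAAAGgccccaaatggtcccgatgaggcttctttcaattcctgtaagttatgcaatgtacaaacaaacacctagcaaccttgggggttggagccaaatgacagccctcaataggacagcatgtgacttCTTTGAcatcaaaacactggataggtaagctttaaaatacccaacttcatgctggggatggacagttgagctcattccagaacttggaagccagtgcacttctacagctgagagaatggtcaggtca
Cyp2e1, chr7:140763569-140763868, plus strand: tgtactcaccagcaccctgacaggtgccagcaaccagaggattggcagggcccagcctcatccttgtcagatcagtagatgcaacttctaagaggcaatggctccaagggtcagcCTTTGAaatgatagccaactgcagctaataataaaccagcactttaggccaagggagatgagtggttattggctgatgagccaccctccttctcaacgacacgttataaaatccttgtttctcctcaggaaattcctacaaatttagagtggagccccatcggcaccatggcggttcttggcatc
A window was listed for 6 of the 10 genes, these 4 with Glul and Axin2, and not for Lgr5, Tbx3, Notum and Rhbg. The letters were found in 3 of the 6 windows. Cyp2e1 had 1 match, 135 bases before the start, Cyp1a2 had 1 on the reverse strand, 243 bases before it, and Slc1a2 had 2, 206 and 77 bases before it. The Slc1a2 start is an internal one, since the gene begins at base 102658239 of chr2, ahead of the window. The Axin2 window, from base 108920099 of chr11, also lies inside its gene, which begins at 108917828. The windows of Oat, Glul and Axin2 held none. Of all 32851 windows in the table, 16% held the letters on either strand, so a match is common by itself, and none of them was tested as a binding site.

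The targeted gene followed the labels. Gnmt had a signal of 245 and 190 in the young female and male knockout pools, against 59473 and 52140 in the wild-type pools, and it lay between 11.7 and 329 on the 6 arrays of aged knockout mice. Signals are in arbitrary units, scaled by the authors to the same mean on each array, and they order samples for 1 probe set but not different genes against each other. The tissue carried hepatocyte RNA throughout: the summed signal of 7 hepatocyte markers was 294984 to 554202. Several samples stood apart. The HCC and the adjacent liver of the male mouse had summed signals of 4 neutrophil markers of 15299 and 14969, against 336 to 1438 on the other 8 arrays. In the wild-type female pool the clock gene Arntl was at 912 and the clock-driven gene Dbp at 191, against 22.2 to 85.2 and 8414 to 11097 in the other 3 young pools. The male HCC and its adjacent liver stood apart on these genes as well, with Arntl at 847 and 553 and Dbp at 42.2 and 214, against 13.6 to 382 and 2390 to 7798 on the other 4 aged arrays. A ratio of 2 spiked-in controls, BioC to BioB, was 1.45 to 1.84 on the aged arrays and 3.9 to 5.09 on the young ones, a split that follows age, so the source of this difference, which the labels do not give, and age cannot be told apart. The 3′ probe set of 18S RNA was at 19.5 to 21.5 in lesions and 57.3 to 79.9 in adjacent liver. The part of these in the results below was not tested, beyond the values given without single arrays.

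**Figure D1:**
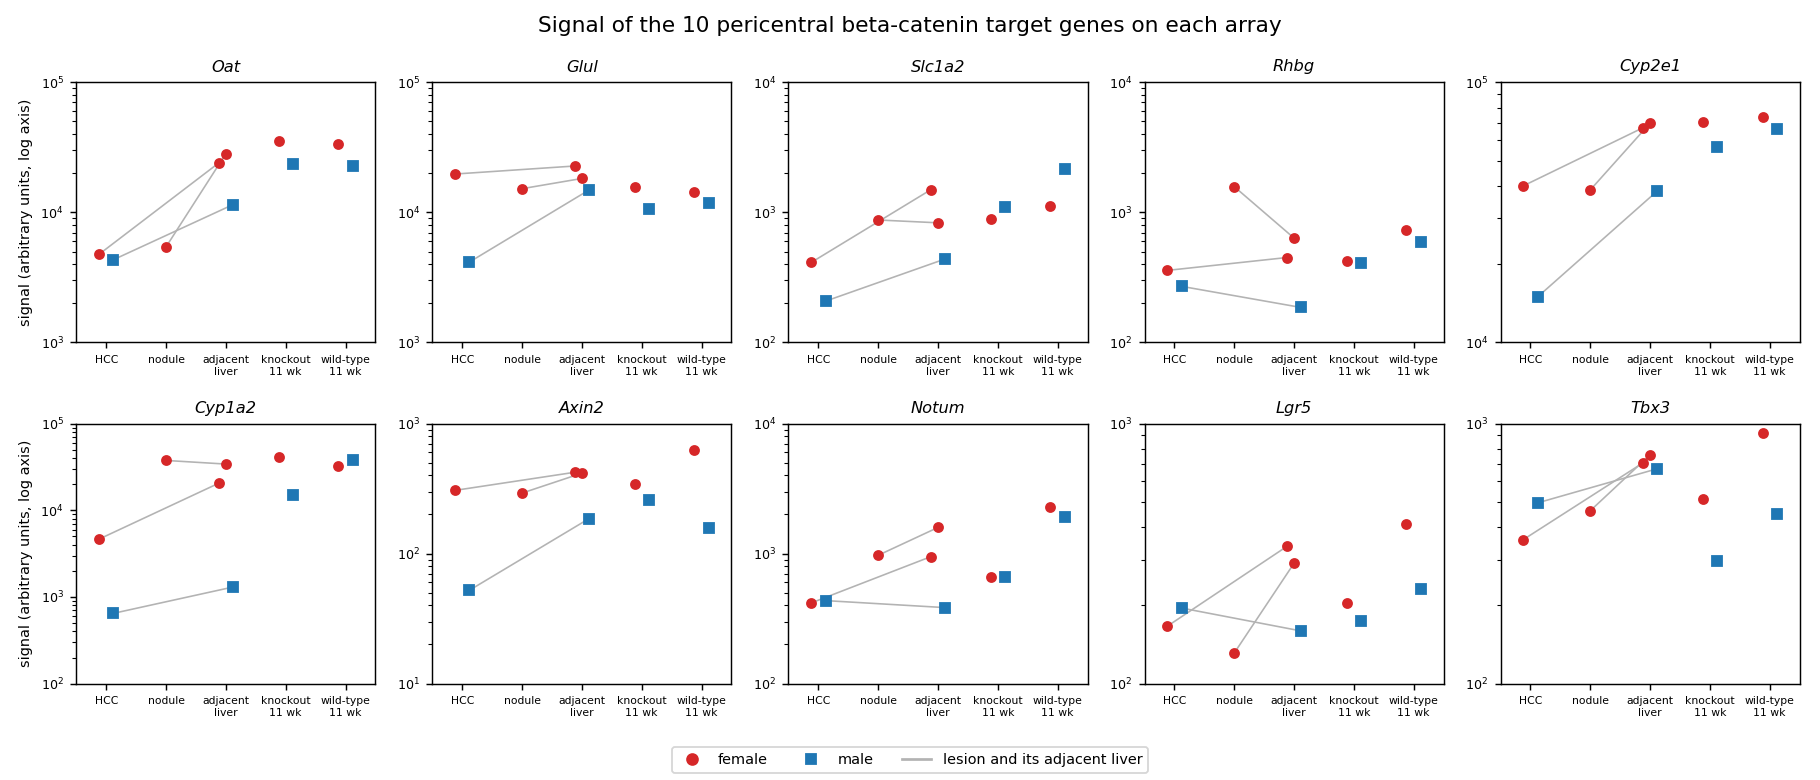
Signal of each of the 10 genes on each of the 10 arrays (y axis, arbitrary units, log scale), with samples grouped along the x axis and 1 point per array, coloured by sex. Oat lies between 4323 and 5427 in the 3 lesions and between 11474 and 28294 in the 3 adjacent livers, and Notum lies at 657 and 661 in the young knockout pools and at 1906 and 2288 in the wild-type pools.

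The first question was whether the pericentral genes differ between the lesions of knockout mice and the liver beside them. In HCC, 9 of the 10 genes had a lower mean than in adjacent liver, with a median log2 difference of -1.01, against -0.003 over all 11507 genes. None passed the test (limma with the mouse as a term, adjusted p below 0.05), in a comparison in which 10 genes, 0.0869% of all, were called. At an unadjusted p below 0.05, 6 of the 10 genes were lower (Oat, Cyp1a2, Slc1a2, Cyp2e1, Glul and Tbx3), against 3.15% of all genes, and none was higher, against 4.43%. With the nodule added, the median over 3 lesions was -0.80, against 0.01 over all genes. None of the 10 was called there either, 1 gene of all (0.00869%) was, and 6 had an unadjusted p below 0.05 in the lower direction, against 3.97% of all genes. The HCC comparison is contained in the comparison of all lesions, so they are not separate evidence. In whole tissue, fewer pericentral cells and less RNA per cell cannot be told apart.

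Oat was the gene with the largest difference. Its signal was 4323 in the male HCC, 4760 in the female HCC and 5427 in the nodule, against 11474, 23974 and 28294 in the adjacent liver of the same mice. The 3 lesions lay close together and below every adjacent liver, and they averaged 4836 ± 556, against 21250 ± 8735 (SD, n = 3 each). The lesions held 37.7%, 19.9% and 19.2% of the adjacent signal in the male, the female and the nodule pair. The fitted log2 difference was -2.04 ± 0.25 (SE, adjusted p = 0.0988) over the 3 pairs, the 6th lowest of 11507 genes, and -1.87 ± 0.31 (adjusted p = 0.0874) over the HCC pairs. Neither passed the threshold. Only 0.156% of all genes, 18 in number, were lower by at least 2-fold in all 3 pairs, and Oat was the only one of the 10 genes among them. Without the male HCC and its pairing, the fit gave -2.35 for Oat with an adjusted p of 0.00683, among 135 genes called. Of 14 alternatives over all lesions, that was the 1 in which Oat was called, and its adjusted p ran up to 0.72.

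Glul, the glutamine synthetase gene, varied between the lesions. It was at 4151 in the male HCC, 19717 in the female HCC and 15210 in the nodule, against 14877, 22726 and 18225 in adjacent liver. The male HCC was the lowest of all 10 arrays, at 27.9% of its adjacent liver, while the female HCC stood at 86.8% of hers and above both wild-type pools. No lesion had more Glul signal than the liver beside it. Over 3 pairs the log2 difference was -0.77 ± 0.35 (adjusted p = 0.549). A second Glul probe set past the filter gave log2 differences of -0.98, -0.52 and -0.62 in the male HCC, female HCC and nodule pairs, against -1.84, -0.21 and -0.26 for the first, so the direction was shared and the sizes were not.

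The transporters differed from each other. Slc1a2 was at 208 and 412 in the male and female HCC, against 438 and 1493 in adjacent liver, and at 874 in the nodule, against 831 beside it. Both HCC samples lay below both of their adjacent livers, and the nodule did not (log2 difference over HCC pairs -1.42 ± 0.32, adjusted p = 0.202). The other Slc1a2 probe sets past the filter were lower in each HCC pair too. In the nodule pair they gave log2 differences of -0.95 and -0.10, against 0.07 for the one used, so the nodule's direction depends on the probe set. Rhbg was at 270 and 358 in the HCC samples, against 186 and 449 in adjacent liver, so the pairs went opposite ways. In the nodule Rhbg was at 1577, against 634 beside it, a log2 difference of 1.29 and the highest Rhbg signal of the series. Lesion type was not tested, since there was 1 nodule.

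Both cytochrome P450 genes were lower in each HCC than beside it. Cyp2e1 was at 14963 and 39986 in the male and female HCC and 38572 in the nodule, against 38225, 66860 and 69707 in adjacent liver. Each lesion lay below its own adjacent liver, although the adjacent liver of the male mouse was lower than the other lesions (log2 difference over 3 pairs -0.98 ± 0.22, adjusted p = 0.28). Cyp1a2 was at 647 and 4647 in the HCC samples, against 1302 and 20500 beside them. The nodule kept a Cyp1a2 signal of 37564, against 34107 in its adjacent liver. Over the HCC pairs the Cyp1a2 log2 difference was -1.56 ± 0.33 (adjusted p = 0.17). The male mouse was low for Cyp1a2 in both tissues, below every other array of the series.

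Among the Wnt feedback and receptor genes, Axin2 was at 52.3, 307 and 292 in the male HCC, female HCC and nodule, against 186, 422 and 416 in adjacent liver. It was lower in each pair, most in the male, with a log2 difference over 3 pairs of -0.83 ± 0.32 (adjusted p = 0.48). Notum was at 435, 417 and 971, against 384, 947 and 1589, so the female pairs were lower and the male pair slightly higher. Lgr5 followed the same split, at 195, 166 and 131 in lesions, against 159, 337 and 290 beside them. Neither passed the test over 3 pairs (adjusted p = 0.579 for Notum and 0.641 for Lgr5). The transcription factor Tbx3 was at 496, 358 and 462, against 671, 706 and 758. Its 3 lesions lay below all 3 adjacent livers by a modest amount, -0.69 ± 0.21 on the log2 scale (adjusted p = 0.389).

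Counted by pair, 5 of the 10 genes (Glul, Oat, Axin2, Tbx3 and Cyp2e1) were lower in the lesion in all 3 pairs, against 16.1% of all genes. Groups did not overlap, in the lower direction, for 3 genes in HCC (Oat, Tbx3 and Slc1a2), against 12.7% of all genes, and for 2 over all lesions (Oat and Tbx3), against 4.01%. In the male HCC pair 5 of the 10 were lower by at least 2-fold, against 5.06% of all genes, with a median log2 difference of -1.01. In the female HCC pair all 10 were lower, 4 of them by at least 2-fold, against 4.52% of all genes, with a median of -0.95. In the nodule pair Oat and Lgr5 were lower by at least 2-fold, against 4.36% of all genes, and Rhbg was higher by that much, against 8.63%. Lgr5 lay just past that mark (-1.06) and was short of it with the doubled added constant (-0.976) and with its probe sets averaged (-0.547). The nodule's median was -0.59. The other added constants and both other scalings left the medians over the HCC pairs and over all lesions negative.

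**Figure D2:**
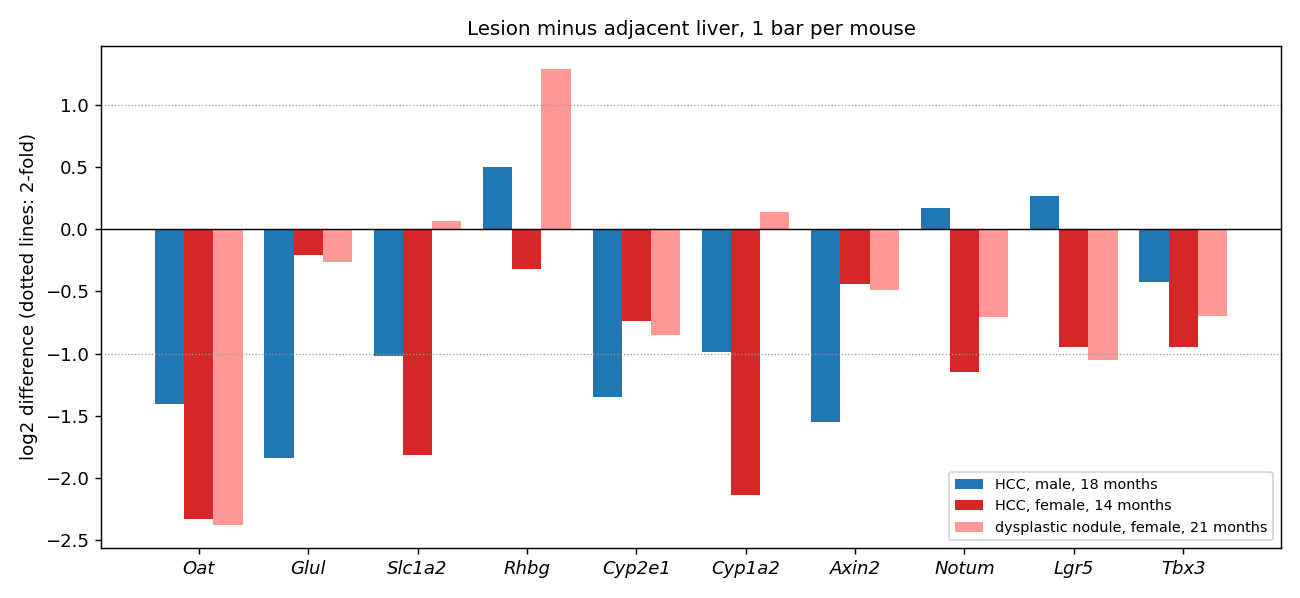
Log2 difference of lesion minus adjacent liver (y axis) for each of the 10 genes (x axis), with 1 bar per pair for the male HCC, the female HCC and the nodule. Oat is lowest in the female HCC and nodule pairs (-2.33 and -2.38) and Glul in the male HCC pair (-1.84), while Rhbg is higher in the nodule (1.29).

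Other genes of the pathway and of the lobule were compared in the same fits, as counts and medians beside those of all genes. All 18 other pericentral hepatocyte genes past the filter had a lower mean in HCC, with a median log2 difference of -0.78. The median of all genes was -0.003. None of the 18 was called, and 10 were lower at an unadjusted p below 0.05, against 3.15% of all genes. The largest differences were those of Cyp2c50 (-1.70 ± 0.28, adjusted p = 0.0874) and of Pon1, which encodes paraoxonase (-1.63 ± 0.26, adjusted p = 0.0831). The probes of Cyp2c50 may share signal with related cytochrome genes. Of 14 periportal genes, 10 had a lower mean, with a median of -0.52, none called and 6 lower at an unadjusted p below 0.05. Cdh1, the gene of E-cadherin, was the periportal gene with the largest difference and was higher (1.58 ± 0.31, adjusted p = 0.137). The 7 hepatocyte markers had a median of 0.05 and none had an unadjusted p below 0.05. Their summed signal was 554202 and 331826 in the male and female HCC, against 486188 and 356782 beside them.

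The lists of signalling genes had medians near 0. In HCC the median log2 difference was 0.14 over 7 Wnt ligands and secreted regulators, -0.19 over 12 receptors and ligases and -0.11 over 15 core genes, and none was called. The largest of these was Sfrp5, a secreted Wnt antagonist (1.78 ± 0.71, adjusted p = 0.602). Among 7 other Wnt-induced genes the median was -0.05, and the largest difference was that of Birc5, a gene of dividing cells (1.66 ± 0.67, adjusted p = 0.614). All 13 endothelial markers past the filter had a higher mean in HCC, with a median of 0.26. The summed signals of all 14 endothelial markers were 24786 and 14427 in the HCC samples, against 16330 and 10141 beside them. Of 10 stellate cell markers, 4 were higher in HCC at an unadjusted p below 0.05 (Col1a1, Col1a2, Col3a1 and Acta2), against 4.43% of all genes, and none was called. The list was split, with 5 markers positive, 5 negative and a median of 0.04. Lrat was the 1 marker lower at an unadjusted p below 0.05 (-0.65), against 3.15% of all genes. Acta2, the smooth muscle actin gene, was at 1628 and 1261 in the male and female HCC, against 807 and 393 beside them (1.32 ± 0.29, adjusted p = 0.197). Col1a1, a collagen gene, was at 787, 977 and 809 in the male HCC, female HCC and nodule, against 780, 156 and 21.8 in adjacent liver, so the male pair barely differed. The summed signal of the stellate list was 27475, 22287 and 17468 in the male HCC, female HCC and nodule, against 28433, 18590 and 14477 beside them. The part of these other cells in the lower pericentral signals was not tested.

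**Figure D3:**
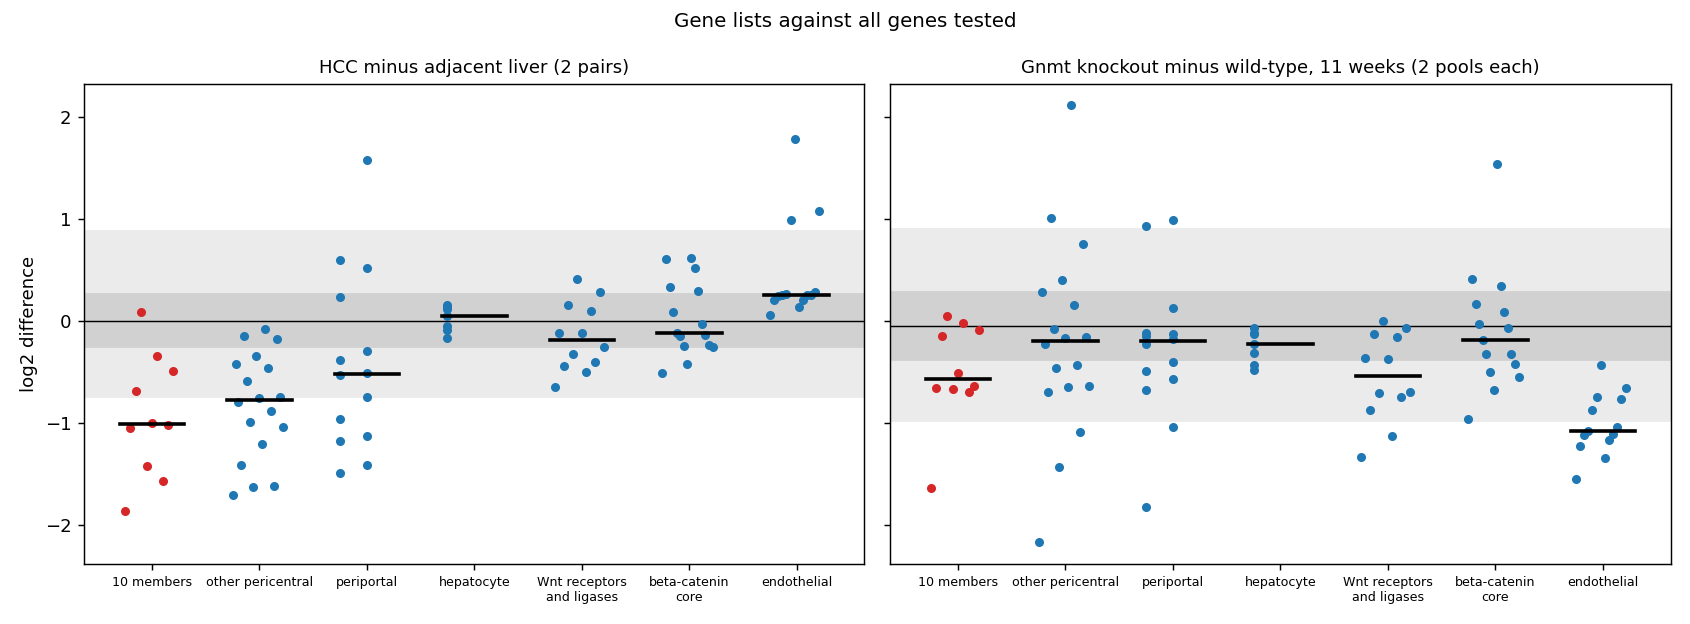
Log2 differences of single genes (points) in each gene list (x axis), with list medians as bars, for HCC against adjacent liver and for knockout against wild-type. In HCC the pericentral lists have medians of -1.01 and -0.78 and the periportal list -0.52, and in the knockout pools the endothelial list has -1.08. The thin line is the median of all genes tested, and the grey bands run between percentiles 25 and 75 and between percentiles 5 and 95 of all genes.

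Oat makes pyrroline-5-carboxylate, the junction between ornithine, proline and glutamate, so the other enzymes at that junction were read beside it. Aldh18a1, which makes the same intermediate from glutamate, was at 1135, 1452 and 1130 in the male HCC, female HCC and nodule, against 299, 145 and 64.4 in adjacent liver. All 3 lesions lay above every other array of the series, and the log2 difference over 3 pairs was 2.96 ± 0.38 (adjusted p = 0.11). Prodh, which makes it from proline, was at 964, 3287 and 7067, against 2397, 9541 and 15025, lower in each pair (-1.31, adjusted p = 0.128). Aldh4a1, which turns it into glutamate, was at 931, 1720 and 2942, against 1347, 3360 and 4193, again lower in each pair (-0.66, adjusted p = 0.363). None of these passed the threshold. Prodh and Aldh4a1 were picked after their values were seen. Over the 13 genes of glutamine, glutamate and ammonium handling the median in HCC was -0.39, and Got1 had the lowest difference (-1.86 ± 0.50, adjusted p = 0.316).

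**Figure D4:**
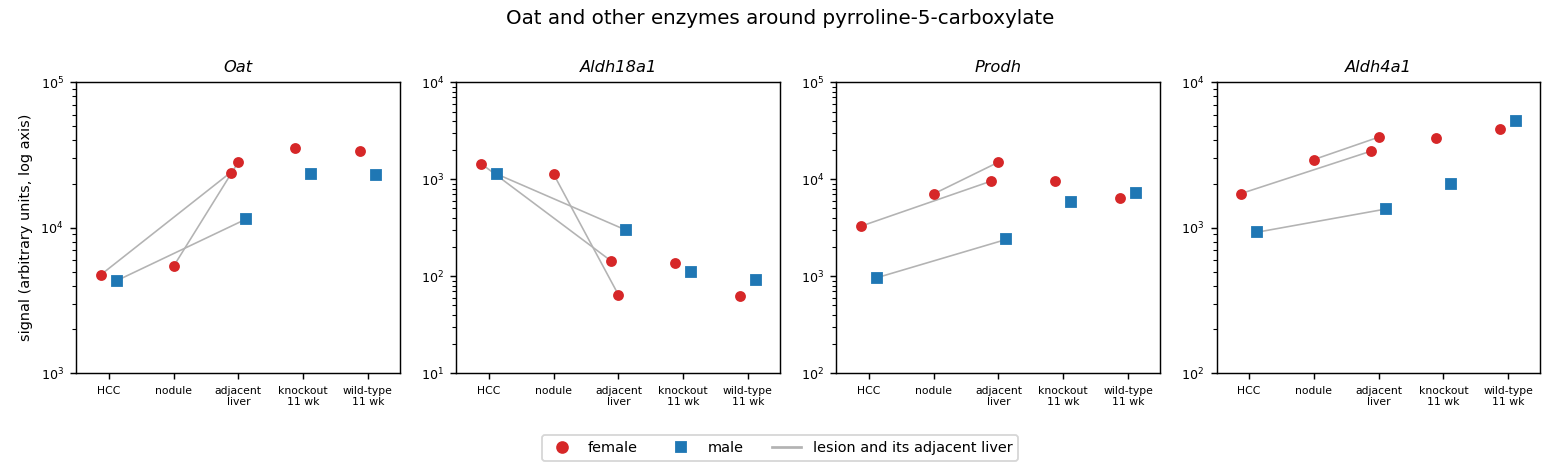
Signal of Oat, Aldh18a1, Prodh and Aldh4a1 on each array (y axis, arbitrary units, log scale), by sample group, with 1 point per array. Aldh18a1 is at 1130 to 1452 in lesions and at 299 or less on all other arrays, while Oat is at 5427 or less in lesions.

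The second question was whether the pericentral genes differ between young knockout and wild-type liver. Notum was the 1 gene of the 10 that passed the test, and it fell. It was at 661 and 657 in the female and male knockout pools, against 2288 and 1906 in the wild-type pools. The knockout pools were nearly equal and far below both wild-type pools, with 28.9% and 34.5% of the wild-type signal in females and males. The fitted log2 difference was -1.64 ± 0.22 (SE, n = 2 pools each, limma with sex as a term, adjusted p = 0.0417). In this comparison 46 genes, 0.4% of all, were called lower and 42 higher. In simulated data of this design more calls were false than the threshold sets. The Notum call did not hold without the intensity trend, without the sex term, with all probe sets of a gene averaged, in a model over all 10 arrays, or without any 1 of the 4 pools, which was fitted in the model over all remaining arrays.

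The other 9 genes did not pass. The median log2 difference of the 10 was -0.57, against -0.05 over all genes, and 9 of 10 were negative, although Oat, Glul, Axin2 and Cyp2e1 lay within 0.15 of 0 and each took the other sign under quantile normalization or centring on the 75th percentile. That centring moved the median of all genes by 0.15. Tbx3 was at 514 and 295 in the female and male knockout pools, against 918 and 448 in wild-type (adjusted p = 0.21). Rhbg was at 419 and 405, against 734 and 594 (adjusted p = 0.224). Lgr5 was at 205 and 175, against 412 and 231 (adjusted p = 0.316). Lower in both sexes, these 3 had log2 differences of -0.70, -0.66 and -0.66.

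Slc1a2 was at 892 and 1098 in the female and male knockout pools, against 1121 and 2141 in wild-type (-0.64, adjusted p = 0.241). Groups did not overlap, in the lower direction, for Notum, Rhbg, Lgr5 and Slc1a2, which is 4 of 10, against 26% of all genes. At an unadjusted p below 0.05, 4 of the 10 were lower, against 10% of all genes. Cyp1a2 split by sex, at 40876 in the female and 14955 in the male knockout pool, against 32058 and 38378 in wild-type. Axin2 split the other way, at 345 and 259, against 627 and 157. The other 3 enzymes had values near each other in both genotypes. Glul was at 15669 and 10620, against 14430 and 11882 in wild-type. Oat was at 35351 and 23405, against 33583 and 22921, and Cyp2e1 was at 70595 and 56174, against 73435 and 66105. The second Glul probe set differed from this, at 5983 and 5210 in knockout pools and 8756 and 9230 in wild-type pools (-0.69).

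**Figure D5:**
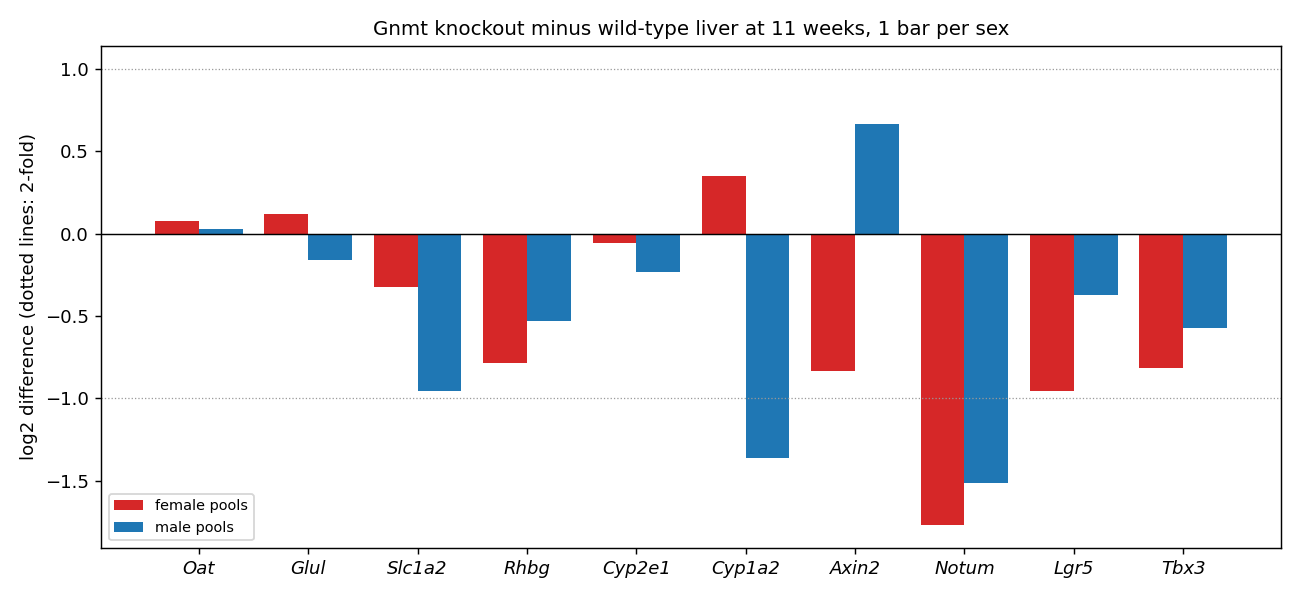
Log2 difference of knockout minus wild-type liver at 11 weeks (y axis) for each of the 10 genes (x axis), with 1 bar for the female pools and 1 for the male pools. Notum is lowest in both sexes (-1.77 and -1.51), and Glul, Axin2 and Cyp1a2 have opposite signs in females and males.

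Around these genes, calls in the pathway were few. Ccnd1, the cyclin D1 gene, rose to 7368 and 4850 in the female and male knockout pools, against 877 and 688 in wild-type (2.92 ± 0.21, adjusted p = 0.011), alone among the 7 other Wnt-induced genes. Among 18 other pericentral genes, Cyp2c37 and Cyp2c50 fell (-2.17 and -1.43, adjusted p = 0.0181 and 0.0251). Their probes may share signal with related cytochrome genes, so which relative changed is uncertain. Among 14 periportal genes, G6pc, which encodes the glucose-6-phosphatase that releases glucose, fell (-1.82, adjusted p = 0.0181). The medians of the pericentral and periportal lists were close, at -0.20 for each.

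None of the Wnt ligands, receptors or core genes was called. Wnt2, a ligand of liver endothelium, was at 112 and 122 in the female and male knockout pools, against 314 and 225 in wild-type (-1.08, adjusted p = 0.185). Of 12 receptors and ligases, 11 were negative, with a median of -0.54 and the lowest difference at Fzd8 (-1.33, adjusted p = 0.191). The core genes had a median of -0.18. Endothelial markers were lower beside these genes: all 13 past the filter had a negative difference, with a median of -1.08, and Stab2, a scavenger receptor of sinusoidal endothelium, fell (-1.55, adjusted p = 0.0487). The summed signal of all 14 endothelial markers was 9282 and 9546 in the female and male knockout pools, against 22701 and 17966 in wild-type. Its part in the Wnt2, Fzd8 and Notum values was not tested. All 10 Kupffer cell markers were negative too, with a median of -0.56 and none called.

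The third question was whether adjacent liver of aged knockout mice differs from young knockout liver. Age, lesion-bearing state, pooling and the BioC to BioB ratio differ together between these groups, so they cannot be told apart. No gene of 11507 was called in this limma fit with sex as a term, 0% of all, although 1393 genes, 12.1%, had an unadjusted p below 0.05. The adjacent livers are also those the lesions were set against, and the young knockout pools also enter the genotype comparison, so the comparisons are not independent. Cyp1a2 was at 1302, 20500 and 34107 in the adjacent livers of the male HCC, the female HCC and the nodule, against 40876 and 14955 in the female and male young pools. Its log2 difference was -1.86 ± 0.61 (adjusted p = 0.393), and the male adjacent liver was far below the rest. Cyp1a2 was called without the nodule's adjacent liver (-2.25, adjusted p = 0.023). Without the female young pool the difference was -3.51, which is the male adjacent liver against the male young pool alone.

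Oat was lower in aged adjacent liver by -0.69 ± 0.24 and Tbx3 higher by 0.77 ± 0.27, with an adjusted p of 0.393 for both. Tbx3 was the 1 gene of the 10 whose groups did not overlap in the higher direction, against 16.9% of all genes. Its signal was 671, 706 and 758 in aged adjacent liver, against 514 and 295 in the young pools. The median of the 10 genes was -0.15, against 0.09 over all genes, and it turned to 0.33 without the male adjacent liver or without the male young pool, which leaves females only. Neutrophil markers were higher in the same comparison, with a median of 2.10 over 4 genes, and S100a9 had the lowest unadjusted p among them (2.88, adjusted p = 0.29). The male adjacent liver stood apart here, with a summed signal of 14969. The adjacent livers of the nodule and the female HCC had 746 and 1438, against 336 and 1196 in the female and male young knockout pools.

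Sex was compared over the same 4 young pools, females against males, with genotype as a term. None of the 10 genes was called, while 28 genes, 0.243% of all, were. Of the 10, 9 had a higher mean in females, with a median log2 difference of 0.46, against 0.03 over all genes. At an unadjusted p below 0.05, 3 were higher (Oat, Axin2 and Tbx3), against 5.25% of all genes, and 1 was lower (Slc1a2), against 3.54%. Groups did not overlap in the higher direction for 5 (Glul, Oat, Axin2, Tbx3 and Cyp2e1), against 17.7% of all genes. Oat was at 35351 and 33583 in the knockout and wild-type female pools, against 23405 and 22921 in the male pools (0.57 ± 0.17, adjusted p = 0.427). The 2 female pools were nearly equal, as were the 2 male pools, and the sexes did not overlap. Axin2 had 1.14 ± 0.40 (adjusted p = 0.504) and Tbx3 0.89 ± 0.25 (adjusted p = 0.406). Slc1a2 was the 1 gene of the 10 lower in females (-0.61 ± 0.25, adjusted p = 0.566), and it turned sign when all its probe sets were averaged. The periportal list was higher in females as well, with 12 of 14 positive and a median of 0.26, and none called.

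Across all samples the 10 genes did not share 1 pattern. For each gene the likeness to other genes was taken as the root mean square difference of log2 profiles over the 10 arrays, each centred on its own mean. For Glul the nearest genes were Ptk2b (0.23), Smpd4 (0.24) and Zc3h12c (0.26), and the nearest of the 10 was Axin2, at rank 287 of 11506. For Cyp2e1 the nearest was Dmgdh, a mitochondrial enzyme of dimethylglycine breakdown (0.13), followed by Slco2b1 (0.20) and Zbtb44 (0.21), and the nearest of the 10, Glul, was at rank 603. For Axin2 they were Cables1 (0.37), Dleu2 (0.38) and Ppp1r10 (0.39), with Glul at rank 24. The nearest of the 10 was at rank 51 for Oat, 85 for Slc1a2, 130 for Cyp1a2, 141 for Tbx3, 171 for Lgr5, 352 for Notum and 691 for Rhbg. The 10 arrays share mice and pools, so these are descriptions. The 10 genes had 21 probe sets, of which 14 passed the filter, and 4 of these were additional ones, of Glul, Tbx3 and Slc1a2. All 4 were lower in each lesion than in its adjacent liver and lower in the knockout pools. The Slc1a2 probe set that stood for the gene was not lower in the nodule.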

How the data were processed

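Liver RNA of 10 samples was hybridised to 1 Affymetrix array each, from 5 ug of total RNA per the labels' protocols. Each deposited value is a linear intensity, the signal of 1 probe set, made with GCOS, per the submitters' processing notes, which give no version or settings. The trimmed mean of each deposited array was 500, after leaving out 2% at either end. No detection calls were used. Precision is limited by how few arrays there are. Of 45101 probe sets, 34958 had 1 gene, 932 several and 9211 none in the annotation table, and 64 were controls.

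A constant of 16.8 was added before taking log2. The probe set of highest mean stood for each gene, which stayed in the test if that mean exceeded 91, the median over the table. Models were fitted with limma 3.58.1 in R 4.3.3, with an intensity trend, and p-values were adjusted by Benjamini-Hochberg over 11507 genes at 0.05. Terms were sex, mouse or genotype. The fits left 1 residual degree of freedom for genotype, HCC and sex, and 2 for all lesions and adjacent liver, so they borrow the spread of other genes. P-values rest on this borrowed spread and on the spread left between these samples once the terms are fitted, not on a spread between many mice. The nodule was described alone without a test. Each fit was also tested on simulated data of its design. There the share of false calls was above the set threshold in all 5 comparisons, so a call is less firm than its adjusted p states. Most simulated 2-fold changes were missed, while 72.7% to 87.5% of 4-fold ones were called. A missing call therefore says little about changes near 2-fold.

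Genes named were the 10 members, Gnmt, and, from each other list, up to 4 called genes, or up to 2 with the largest difference where none was called. For Glul, Cyp2e1 and Axin2 the 3 genes of nearest pattern were added. Exceptions are said in the text, and Col1a2, Col3a1 and Lrat were named for their unadjusted p below 0.05 in HCC. The members and lists were chosen with earlier results of these data known. The alternatives were other added constants, scalings, filters, probe set rules, model terms and leaving out each sample. Promoter windows came from RefSeq (GRCm38.p6).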

Additional observations from a re-analysis of the deposited data

How the results depend on the processing

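Few arrays per group limit all comparisons. Of the 10 genes, the count called for knockout against wild-type was 1, and it was 0 without the intensity trend, with all probe sets averaged, in the model over all 10 arrays and without the replicate block (the sex term). It was also 0 when each pool was left out, in models over all remaining arrays, and the cause was not tested. Notum kept its direction in all 15 alternatives. Over them its adjusted p was 0.00492 to 0.899, and it was called in 7. The genes called overall were 88, and 542 with quantile normalization, 258 with centring on the 75th percentile, 194 with a filter on mean log2 values (chosen after seeing the data), 133 with the halved constant, 30 with averaged probe sets, 2 in the model over all arrays or without the replicate block, and 1 without the trend. For HCC against adjacent liver they were 10, and 0 to 19 under the alternatives.

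The median of the 10 genes for knockout against wild-type was -0.42 with centring on the 75th percentile, -0.39 with averaged probe sets and -0.789 to -0.165 when 1 pool was left out. For HCC it was -0.954 with the doubled constant, -0.95 with quantile normalization and -0.78 with averaged probe sets. Leaving out 1 HCC pair only restates the other pair alone, -1.005 for the male and -0.949 for the female. For all lesions it was -1.009 to -0.517 without 1 pair, where the count called was 0 to 1. For adjacent aged against young knockout liver it was -0.652 to 0.327 without 1 array, with 0 to 1 called. For females against males it was 0.40 with quantile normalization, 0.34 with centring, 0.24 with averaged probe sets, 0.535 in the model over all arrays and 0.61 to 0.69 without 1 pool. The last models take the sex term from the aged mice too.

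Signs turned for single genes, none called, and the cause was not tested. For knockout against wild-type these were Oat (-0.031), Axin2 (0.052) and Cyp2e1 (0.04) with quantile normalization, and Glul (0.13), Axin2 (0.068) and Cyp2e1 (0.005) with centring. Without 1 pool the ranges were -0.45 to 0.41 for Glul, -0.76 to 0.59 for Axin2, -0.50 to 0.20 for Cyp2e1, -2.004 to 0.996 for Cyp1a2 and -1.495 to 0.218 for Slc1a2. For HCC, Lgr5 was 0.15 with averaged probe sets, and without 1 pair Lgr5 ranged from -0.95 to 0.27, Notum from -1.15 to 0.17 and Rhbg from -0.32 to 0.50. For adjacent aged against young knockout liver, Notum was -0.002 with centring, Axin2 0.11, Lgr5 -0.60 and Slc1a2 0.09 with averaged probe sets, and Axin2 0.10 without the replicate block. Without 1 array the ranges were -0.44 to 0.27 for Axin2, -0.12 to 0.57 for Lgr5, -1.29 to 0.32 for Slc1a2, -0.75 to 0.88 for Notum and -1.06 to 0.34 for Rhbg. For females against males, Slc1a2 was 0.005 with averaged probe sets, 0.36 in the model over all arrays and 0.58 to 0.79 without 1 pool. In the nodule, Lgr5 fell short of 2-fold with the doubled constant (-0.976) and with averaged probe sets (-0.547), which left 2 of the 10 genes past 2-fold in place of 3, and Slc1a2 was -0.053 with centring and -0.073 with averaged probe sets. In the lesion comparisons, dropping the replicate block (the mouse term) called 0 of the 10 genes.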
